A study of Mus musculus with 16 samples.

Results

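The let-7 miRNAs mmu-let-7b-5p, mmu-let-7d-5p, mmu-let-7g-5p and mmu-let-7i-5p were followed across small RNA libraries of mouse blastocyst fragments. They were taken by name from the deposited count files and make up 4 of the 1978 mature names listed there, 497 of which had a count in any library. let-7e is not among the 4, because its gene lies in the miR-99b and miR-125a cluster. A laser was used to divide each blastocyst: polar pieces hold the inner cell mass, and mural pieces are trophectoderm away from it. The 16 libraries fall into 6 groups. Polar and mural pieces came from diapaused blastocysts, paused in vivo and collected at EDG 7.5 (n = 3 libraries each), from mTORi blastocysts, paused with an mTOR inhibitor (n = 3 each), and from WT blastocysts, normal embryos at embryonic day 4.5 (n = 2 each). The inhibitor, its dose and the day of the mTORi blastocysts are not named in the sources used here, nor are the strain or the number of embryos in a library. Stage and pausing cannot be told apart in these groups.

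A let-7 miRNA is cut from a hairpin precursor, loaded into an Argonaute protein, and pairs with target mRNAs through its seed, the bases near its 5′ end. In mouse embryonic stem cells mature let-7 is scarce, because the RNA-binding protein Lin28 holds back its maturation, and its level rises as cells differentiate. let-7 lowers growth and cell cycle regulators such as Ras, Hmga2 and Myc family genes, and it has been reported to take part in the entry of mouse blastocysts into diapause. In diapause the embryo halts reversibly as a blastocyst and delays implanting, and mTOR is a kinase through which nutrients drive growth.

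The mature sequences show how alike the 4 members are and where a short read can tell them apart. They come from the RefSeq annotation of GRCm38.p6, 5′ to 3′, with the seed (bases 2 to 8) in capitals. let-7c and let-7a, which lie beside let-7b and let-7d in the genome, are shown for comparison.
let-7b-5p: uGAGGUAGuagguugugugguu
let-7d-5p: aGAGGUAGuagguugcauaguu
let-7g-5p: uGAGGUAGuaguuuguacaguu
let-7i-5p: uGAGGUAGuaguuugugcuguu
let-7c-5p: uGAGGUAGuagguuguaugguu
let-7a-5p: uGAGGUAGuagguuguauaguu

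All 4 members are 22 bases long and carry the seed GAGGUAG, which 11 of 1679 mature names in that annotation share, so they pair with overlapping sets of targets. Counted from base 1 at the 5′ end, let-7g and let-7i differ only by A17G and A19U, the closest pair of the 4. let-7d and let-7i are the farthest apart, with 6 differences. let-7b differs from its neighbour let-7c by the single change G17A, and let-7a differs from let-7d by U1A and U16C. Each member's mature sequence occurs in 1 annotated hairpin, whereas those of let-7a, let-7c and let-7f each occur in 2.

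The 4 genes lie at separate loci. Mature let-7b is at chr15:85707325-85707346 on the plus strand of GRCm38, in an exon of the noncoding transcript Lncppara and 622 bases from Mirlet7c-2. Mature let-7d is at chr13:48536078-48536099 on the minus strand, in an exon of the lincRNA 6720427I07Rik and 1715 bases from Mirlet7f-1. Mature let-7g is at chr9:106178846-106178867 on the plus strand, in an intron of the protein-coding gene Wdr82. Mature let-7i is at chr10:122985698-122985719 on the minus strand, in an exon of D630033A02Rik, which is annotated as a transcribed processed pseudogene.

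The hairpins are shown because Lin28 recognises the stretch between the arms, with its zinc knuckles binding a GGAG motif in let-7 precursors. Capitals mark GGAG where it occurs between the annotated arms, searched on the hairpin strand alone.
Mirlet7b: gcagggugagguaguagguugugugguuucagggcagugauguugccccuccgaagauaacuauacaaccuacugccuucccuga
Mirlet7d: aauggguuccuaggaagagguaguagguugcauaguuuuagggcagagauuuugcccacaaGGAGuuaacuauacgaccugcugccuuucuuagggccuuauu
Mirlet7g: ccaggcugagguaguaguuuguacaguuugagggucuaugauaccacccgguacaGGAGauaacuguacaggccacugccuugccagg
Mirlet7i: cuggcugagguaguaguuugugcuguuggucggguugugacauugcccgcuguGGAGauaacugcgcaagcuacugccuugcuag

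Mirlet7d, Mirlet7g and Mirlet7i hold 1 GGAG each, 4, 3 and 4 bases before the 3p arm, and Mirlet7b holds none in this window. Among 644 mouse hairpins with both arms annotated, 52 (8.07%) hold GGAG between the arms, where the median stretch is 16 bases against 32 to 34 in the 4 members. Of the 34 hairpins with a stretch of 28 to 38 bases, 11 (32.4%) hold it. A match describes the letters and is not evidence of binding in these embryos.

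Library totals were 9049 to 20051 counts in diapaused, 2184 to 4386 in mTORi and 1744 to 8366 in WT libraries, so every diapaused library was deeper than every other one. The part of depth in the results was not tested. For the 3 mural mTORi libraries, whose titles give no part and include the word diapaused, grouping followed the labels of tissue and treatment. Fragment markers followed the labels by group. The mural miR-322/miR-503 list took 0.344% to 1.92% of the counts in polar libraries and 2.63% to 7.47% in mural ones. The epiblast miR-302/miR-367 list had counts in polar groups and none in mural ones. Its only counts in polar mTORi libraries were 2 of miR-302a-3p in replicate 2, so it gives replicates 1 and 3 no mark of the part. The miR-290/miR-295 cluster, whose miRNAs dominate mouse embryonic stem cells, took 27.9% to 55.3% of each library. Polar mTORi replicate 3 stood apart, with 25.8% of its counts in miR-203-3p and miR-205-5p, markers of stratified epithelia, against 0.341% to 1.28% in all diapaused, mural mTORi and WT libraries. Polar mTORi replicate 1 held 0.719%. Polar mTORi replicate 2 held 35 counts of miR-203-3p and 5 of miR-205-5p among 2184, a share above that range. No library batch is labelled.

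Across the 16 libraries let-7b gave 679 counts, let-7g 618, let-7d 328 and let-7i 154. All 4 passed the filter on low counts, which left 102 miRNAs to test. Levels are counts scaled by trimmed means to a library of 1000000 (CPM), and changes are log2 ratios from edgeR's quasi-likelihood test with Benjamini-Hochberg adjustment over the 102, called at an adjusted p under 0.05. In pieces of embryo, fewer cells of a type and less of a miRNA per cell cannot be told apart.

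**Figure D1:**
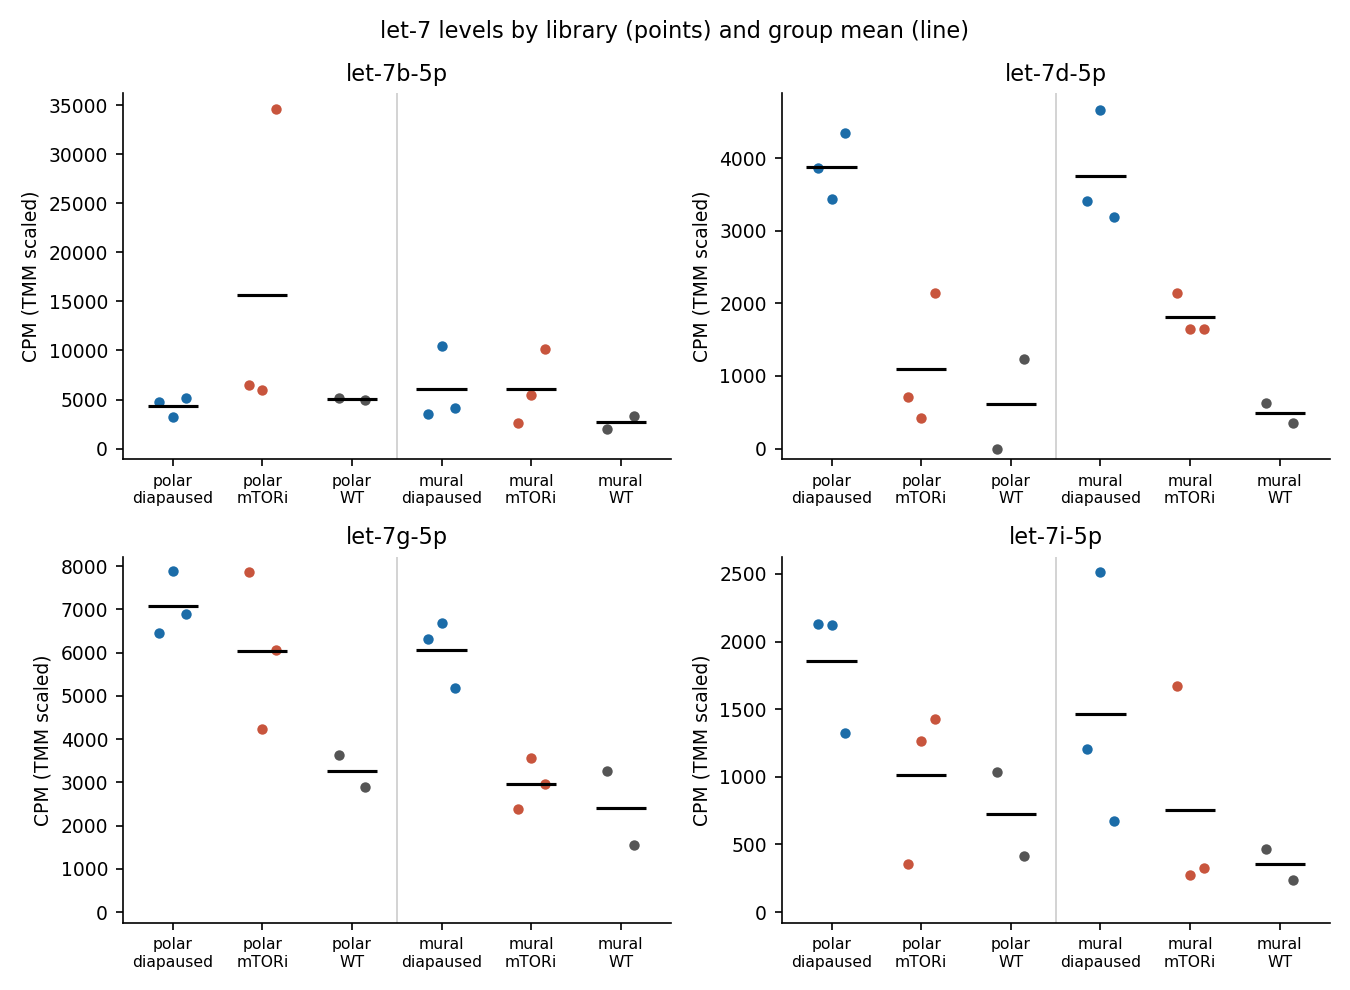
Level of each let-7 miRNA in every library. The y axis is CPM on a linear scale from 0, each point is a library and each line is the mean of its group (3 diapaused, 3 mTORi and 2 WT libraries per part). For let-7d all 6 diapaused points lie at 3184 CPM or higher, above every mTORi and WT point, and for let-7b a single polar mTORi library stands at 34555 CPM.

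Natural diapause came with higher let-7d, let-7g and let-7i. Averaged over the polar and mural parts, let-7d was 5.98-fold, let-7i 3.52-fold and let-7g 2.37-fold higher in diapaused than in WT fragments, and these 3 of 4 members were called higher. DESeq2 called 2 of the 4, let-7d and let-7g. let-7b showed a log2 change of 0.48 and was not called. Of all 102 tested miRNAs, 18.6% were called in this comparison and 14.7% were called higher. The median log2 change was 1.53 over the 4 members and 0.15 over all tested miRNAs. Of all calls, 15 were higher and 4 lower under the main scaling, against 11 and 5 under DESeq2's size factors (RLE), which moved the median of all by -0.17. Measured from that median, the change of let-7d was 2.43 under the main scaling and 2.42 under RLE factors.

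let-7d, a cluster partner of let-7a and let-7f on chromosome 13, changed most. In polar fragments it measured 3863, 3442 and 4346 CPM in diapaused libraries, against 0 and 1235 CPM in WT libraries. In mural fragments it measured 3415, 4657 and 3184 CPM in diapaused libraries, against 623 and 359 CPM in WT libraries. The diapaused libraries lay above the WT libraries without overlap in both parts. The WT values rest on few reads, with 0 and 6 counts in the polar and 4 and 3 in the mural libraries, while diapaused libraries gave 34 to 76. A count of 0 in polar WT replicate 1, of 1744 in all, allows up to 3 counts, or 1557 CPM after scaling, so its level there is not settled at this depth.

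The averaged log2 change of let-7d was 2.58 (SE 0.47, 95% interval 1.59 to 3.58, edgeR adjusted p = 0.000685). It was called in each of the 6 other settings and in each of the 15 fits without 1 library that leave let-7d counts in polar WT, with log2 changes between 2.11 and 2.78. Within mural fragments it was 2.93 (SE 0.65, 95% interval 1.55 to 4.30, edgeR adjusted p = 0.00819), the call there. In that comparison 9.8% of all tested miRNAs were called and 7.84% were called higher (8 higher and 2 lower, or 3 and 2 under RLE factors). The mural call was lost without mural WT replicate 2 (log2 change 2.56, adjusted p = 0.156) and without mural mTORi replicate 1 (2.47, adjusted p = 0.0544). Within polar fragments the log2 change was 2.24 (SE 0.68, 95% interval 0.79 to 3.68) and the adjusted p of 0.0511 missed the threshold.

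let-7g, which lies within Wdr82, was the most abundant of the 4 in polar diapaused fragments. In polar fragments it measured 6461, 7897 and 6897 CPM in diapaused libraries, against 3633 and 2883 CPM in WT libraries. In mural fragments it measured 6327, 6678 and 5195 CPM in diapaused libraries, against 3271 and 1555 CPM in WT libraries. All 6 diapaused libraries were above all 4 WT libraries. The averaged log2 change was 1.24 (SE 0.31, 95% interval 0.60 to 1.89, edgeR adjusted p = 0.00922). Without polar WT replicate 2 it was 0.92 (adjusted p = 0.126), and without mural WT replicate 2 it was 1.02 (adjusted p = 0.0683). Each part alone missed the threshold, with a log2 change of 1.34 in mural fragments (SE 0.42, adjusted p = 0.0509) and 1.14 in polar fragments (SE 0.45, adjusted p = 0.134).

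let-7i, the closest relative of let-7g by sequence, was the scarcest member by total count. In polar fragments it measured 2132, 2126 and 1323 CPM in diapaused libraries, against 1038 and 412 CPM in WT libraries. In mural fragments it measured 1205, 2512 and 670 CPM in diapaused libraries, against 467 and 239 CPM in WT libraries. The libraries did not overlap within either part, although mural diapaused replicate 3 lay below polar WT replicate 1. WT libraries held only 2 or 3 counts each. The averaged log2 change was 1.81 (SE 0.62, 95% interval 0.51 to 3.11, edgeR adjusted p = 0.0487). It was not called by DESeq2 (1.64, adjusted p = 0.0852), under RLE factors (1.63, adjusted p = 0.111), by library size alone (1.69, adjusted p = 0.0788) or with no filter on low counts (1.73, adjusted p = 0.207). The call held in 3 of the 16 fits without 1 library (without polar mTORi replicate 1, mural mTORi replicate 2 or polar diapaused replicate 3), and over the 16 the log2 change ran between 1.23 and 2.06 and the adjusted p between 0.0441 and 0.374. Neither part alone was called, with log2 changes of 2.07 in mural (adjusted p = 0.138) and 1.56 in polar fragments (adjusted p = 0.281).

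let-7b, which sits beside let-7c on chromosome 15, did not follow the other 3 in polar fragments. There it measured 4729, 3240 and 5196 CPM in diapaused libraries, against 5190 and 4942 CPM in WT libraries. In mural fragments it measured 3515, 10477 and 4106 CPM in diapaused libraries, against 2025 and 3349 CPM in WT libraries. The polar groups overlapped, and the mural groups did not. Neither comparison was called, with a log2 change of -0.20 in polar fragments (95% interval -1.76 to 1.36, adjusted p = 0.957) and 1.16 in mural fragments (95% interval -0.38 to 2.70, adjusted p = 0.415). Mural diapaused replicate 2, with 171 of its 20051 counts in let-7b, carried much of the mural value, and without it the log2 change was 0.49. These intervals leave room for a change of more than 2-fold in either part.

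Read part by part, the polar comparison of diapaused with WT called 0 of the 4 members in edgeR, with 2 at an unadjusted p under 0.05 and 1 (let-7d) called by DESeq2, while 7.84% of all tested miRNAs were called (6 higher and 2 lower, or 6 and 7 under RLE factors). The libraries of the groups did not overlap for 3 of 4 members, all higher in diapaused, beside 27.5% of all tested miRNAs higher without overlap. In the mural comparison 1 of 4 was called, 3 had an unadjusted p under 0.05, and all 4 were higher in diapaused without overlap, beside 32.4% of all tested miRNAs. The median log2 change of the 4 was 1.35 in polar and 1.70 in mural fragments, beside 0.10 and 0.19 over all tested miRNAs. Scaling by RLE factors moved the median of all miRNAs by -0.11 in polar and -0.24 in mural fragments. Measured from that median, the mural change of let-7d was 2.73 under the main scaling and 2.72 under RLE factors.

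**Figure D2:**
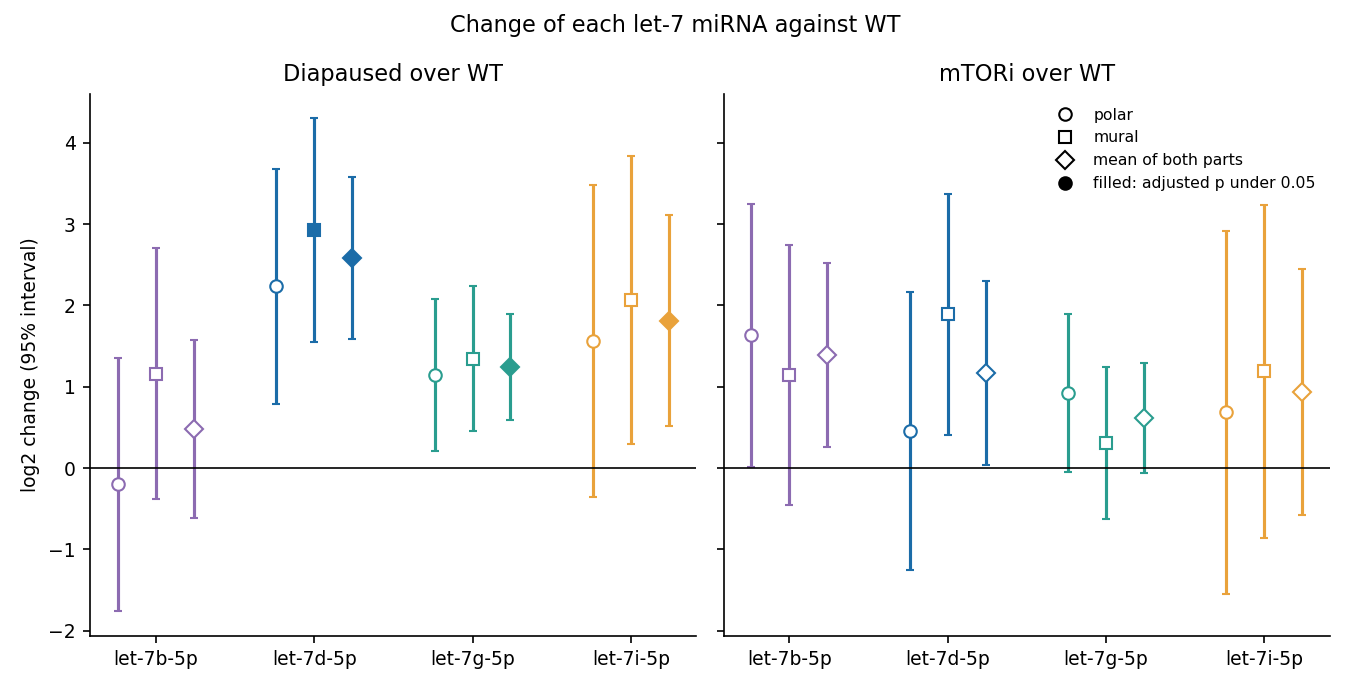
Log2 change of each let-7 miRNA in diapaused (left) and mTORi (right) fragments over WT, from edgeR, with 95% intervals. Circles are polar fragments, squares mural fragments and diamonds the mean of both parts, and filled symbols have an adjusted p under 0.05. let-7d is filled in mural fragments and in the mean at 2.93 and 2.58, let-7g and let-7i are filled only in the mean, and no mTORi symbol is filled.

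Markers of other cell types were set beside these results, since let-7 is abundant in many differentiated tissues. The stromal list, 3 of whose 7 names were detected, took 0.0873% to 0.165% of the counts in mural diapaused against 0.0466% to 0.0478% in mural WT libraries. All of its 61 counts in mural diapaused libraries were miR-143-3p (11, 33 and 17), so the difference there is that of a single miRNA. In polar fragments the same list took 0.0315% to 0.0774% in diapaused against 0.0573% to 0.101% in WT libraries. miR-145a-3p, miR-199a-3p, miR-199a-5p and miR-199b-3p were at 0 in every library, and so were all 3 neural markers. How reads were counted is not given, and let-7a-5p and let-7c-5p were also listed at 0. A listed 0 therefore does not show that such cells were absent. The erythroid list, with 5 of 5 names detected, took 0.0207% to 0.166% in diapaused against 0.0956% to 2.43% in WT libraries, where the high value belonged to polar WT replicate 2 through miR-451a. The leukocyte list, 5 of 5 detected, took at most 0.0828% in diapaused and 0.344% in WT libraries. Lists of the fragments' own cells moved as well. The epiblast miR-302/miR-367 list, 4 of 5 names detected and miR-302c-3p at 0, took 0.021% to 0.0884% in polar diapaused against 0.142% to 0.401% in polar WT libraries. The mural miR-322/miR-503 list, 5 of 5 detected, took 3.73% to 5.07% in mural diapaused against 7.06% to 7.47% in mural WT libraries. Neither pair of groups overlapped. The part of any of these cells in the let-7 levels was not tested.

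Under mTOR inhibition no member was called against WT. Averaged over the parts, the log2 changes were 1.39 for let-7b (SE 0.54, adjusted p = 0.0547), 1.17 for let-7d (SE 0.54, adjusted p = 0.101), 0.94 for let-7i (SE 0.72, adjusted p = 0.316) and 0.62 for let-7g (SE 0.32, adjusted p = 0.135). All 4 were positive, with a median of 1.05 beside -0.01 over all tested miRNAs, of which 32.4% were called (16 higher and 17 lower, or 11 and 19 by library size alone). In edgeR 0 of 4 members were called and 2 had an unadjusted p under 0.05, and DESeq2 called 1, let-7b (log2 change 1.41, adjusted p = 0.0453).

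The let-7b value rested on a single library. In polar fragments let-7b measured 6438, 5921 and 34555 CPM in mTORi libraries, against 5190 and 4942 CPM in WT libraries. The highest value is polar mTORi replicate 3, where let-7b held 97 of 3501 counts and where miR-203-3p held 748. In mural fragments let-7b measured 2626, 5490 and 10193 CPM in mTORi libraries, against 2025 and 3349 CPM in WT libraries, and these overlap. Without polar mTORi replicate 3 the averaged log2 change of let-7b was 0.65 (adjusted p = 0.249), and the polar change was 0.19 in place of 1.63. The part of the epithelial markers in the let-7b level of that library was not tested.

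let-7d under the inhibitor differed in its values between the parts. In mural fragments it measured 2148, 1647 and 1644 CPM in mTORi libraries, against 623 and 359 CPM in WT libraries, without overlap. The mural log2 change was 1.89 (SE 0.70, 95% interval 0.41 to 3.37, adjusted p = 0.0894), and it was called only without polar mTORi replicate 3 (1.91, adjusted p = 0.0418). In polar fragments it measured 715, 423 and 2137 CPM in mTORi libraries, against 0 and 1235 CPM in WT libraries, on counts of 2, 1 and 6 against 0 and 6. The polar log2 change was 0.45 (95% interval -1.25 to 2.16), and the test of the difference between parts gave -1.43 (SE 1.08, adjusted p = 0.587).

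let-7g measured 7869, 4229 and 6056 CPM in polar mTORi libraries, against 3633 and 2883 CPM in polar WT libraries. These groups did not overlap, and the log2 change of 0.93 was not called (SE 0.46, adjusted p = 0.138). In mural fragments let-7g measured 2387, 3569 and 2959 CPM in mTORi libraries, against 3271 and 1555 CPM in WT libraries, with a log2 change of 0.31 (SE 0.44, adjusted p = 0.761). let-7i ranged from 275 to 1671 CPM over the 6 mTORi libraries, on 1 to 7 counts each, against 239 to 1038 CPM over the 4 WT libraries. Its groups overlapped in both parts, and neither part was called.

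By part, 22.5% of all tested miRNAs were called in polar and 11.8% in mural mTORi fragments against WT. Of the 4 members, edgeR called 0 in each, with 1 in each at an unadjusted p under 0.05 (let-7b in polar and let-7d in mural fragments), and DESeq2 also called 0 in each. In polar fragments let-7b and let-7g lay above WT without overlap, beside 21.6% of all tested miRNAs. In mural fragments let-7d alone of the 4 did, beside 20.6%. Both treatments are compared with the same WT libraries, so their changes are not independent of each other.

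**Figure D3:**
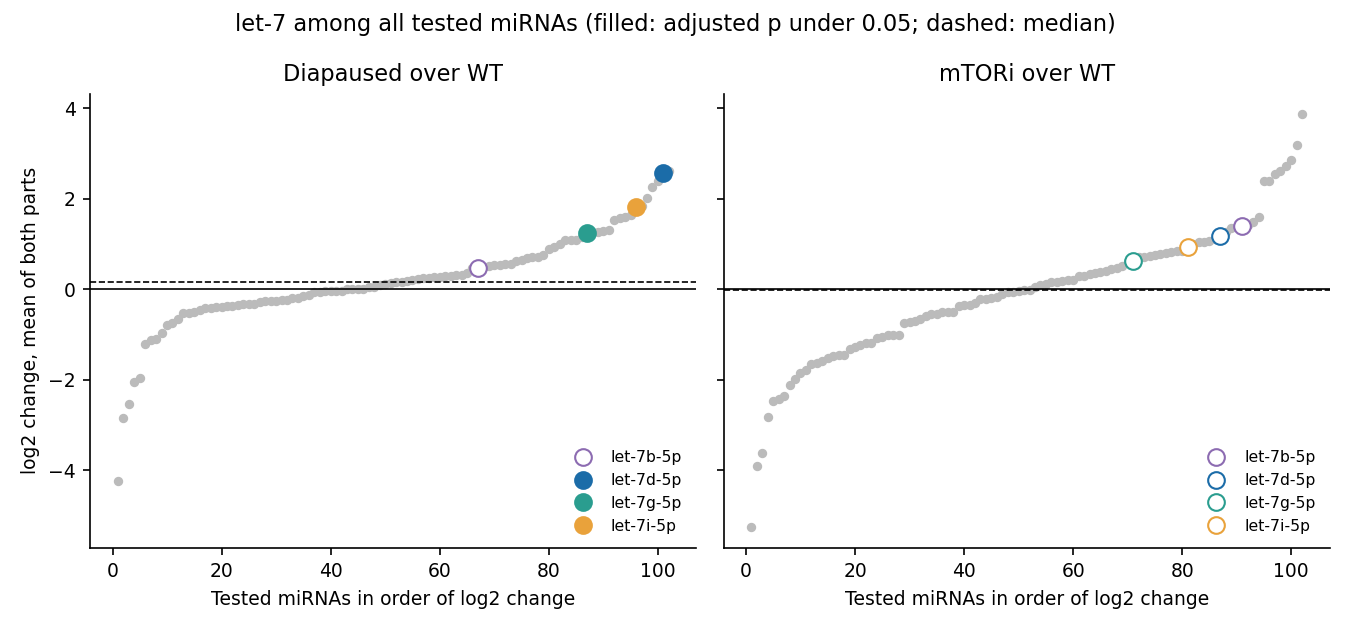
All 102 tested miRNAs in order of their log2 change over WT, averaged over parts, for diapaused (left) and mTORi (right) fragments. Grey points are other miRNAs, coloured circles the 4 let-7 miRNAs (filled where the adjusted p is under 0.05), and the dashed line is the median of all. In diapaused fragments let-7d at 2.58, let-7i at 1.81 and let-7g at 1.24 stand toward the high end, while let-7b at 0.48 lies nearer the median of 0.15.

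Natural and induced pausing were also compared directly. In polar fragments let-7d was 3.44-fold higher in diapaused than in mTORi libraries (log2 change 1.78, SE 0.58, 95% interval 0.56 to 3.001, edgeR adjusted p = 0.0492), with every diapaused library above every mTORi library. That was the only call among the 4, where 15.7% of all tested miRNAs were called and 7.84% were called higher (8 higher and 8 lower, or 6 and 10 under RLE factors). It lay at the threshold and was lost under RLE factors (1.65, adjusted p = 0.0744), with the fit on only the groups compared (1.75, adjusted p = 0.117) and with no filter on low counts (1.88, adjusted p = 0.133). It was also lost in 11 of 16 fits without 1 library. Those were the fits without any of the 3 polar diapaused, the 3 mural diapaused or the 3 mural mTORi libraries, or without polar mTORi replicate 1 or 2, and their log2 changes lay between 1.54 and 1.86. Without polar mTORi replicate 3 the change was larger, at 2.68 (adjusted p = 0.0176).

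let-7b pointed the other way in polar fragments, with all 3 diapaused libraries below all 3 mTORi libraries and a log2 change of -1.83 that was not called (SE 0.63, adjusted p = 0.0574). It was called by DESeq2 (-2.11, adjusted p = 0.0256), under RLE factors (-2.10, adjusted p = 0.0498) and with no filter on low counts (-1.81, adjusted p = 0.00405). It was also called in 4 of 16 fits without 1 library (mural diapaused replicate 3, mural mTORi replicate 1, polar mTORi replicate 1 or polar mTORi replicate 2), at log2 changes of -2.21 to -1.98. It too turned on polar mTORi replicate 3, without which it was -0.54 (adjusted p = 0.588). For let-7g and let-7i the polar log2 changes were 0.22 (95% interval -0.55 to 0.99) and 0.88 (95% interval -0.67 to 2.42). In polar fragments let-7b was thus 1 of the 10.8% of tested miRNAs below the mTORi libraries without overlap, and let-7d 1 of the 21.6% above them.

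In mural fragments edgeR called 0 of the 4 members between diapaused and mTORi, beside 0.98% of all tested miRNAs, with 1 member (let-7g) at an unadjusted p under 0.05 and 0 called by DESeq2. let-7d and let-7g lay above the mTORi libraries without overlap, as 29.4% of all tested miRNAs did. let-7d had a log2 change of 1.04 (SE 0.51, adjusted p = 0.199) and let-7g of 1.03 (SE 0.38, adjusted p = 0.0999). The values for let-7i and let-7b were 0.88 (95% interval -0.63 to 2.38) and 0.02 (95% interval -1.31 to 1.34).

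No member was called between the polar and mural parts in any treatment. Among all tested miRNAs, 18.6% were called between polar and mural pieces of diapaused blastocysts (5 higher and 14 lower in polar, or 13 and 2 by library size alone), 4.9% in mTORi blastocysts, 10.8% in WT blastocysts and 27.5% averaged over the treatments. In diapaused blastocysts all 4 members overlapped between the parts, with log2 changes of polar over mural of -0.47 for let-7b, 0.05 for let-7d, 0.22 for let-7g and 0.32 for let-7i. For let-7d the 95% interval ran from -0.89 to 0.98, and for let-7g from -0.50 to 0.95. The let-7b value was 0.0023 when libraries were scaled by their size alone. Averaged over treatments, let-7g had a log2 change of 0.56 (SE 0.24, adjusted p = 0.104), which edgeR did not call and DESeq2 did (0.62, adjusted p = 0.0458).

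In mTORi blastocysts let-7g was higher in every polar than in every mural library, with a log2 change of 1.03 (SE 0.40, adjusted p = 0.142), beside 13.7% of all tested miRNAs higher in polar without overlap. let-7b showed 1.38 there (SE 0.65, adjusted p = 0.248), and -0.11 without polar mTORi replicate 3. In WT blastocysts the polar over mural log2 changes lay between 0.42 for let-7g and 0.89 for let-7b. There let-7b was higher in polar without overlap, beside 26.5% of all tested miRNAs higher and 25.5% lower without overlap. Within each treatment edgeR and DESeq2 both called 0 of the 4 members between the parts. At an unadjusted p under 0.05 in edgeR there were 0 in diapaused, 2 in mTORi and 0 in WT blastocysts.

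Whether pausing changed a member differently in the 2 parts was tested as an interaction. For natural diapause the polar minus mural difference of log2 changes was -1.36 for let-7b (SE 1.03, adjusted p = 0.666), -0.69 for let-7d (SE 0.96, adjusted p = 0.920), -0.20 for let-7g (SE 0.60, adjusted p = 0.935) and -0.50 for let-7i (SE 1.26, adjusted p = 0.935). For mTOR inhibition it was 0.49 for let-7b, -1.43 for let-7d, 0.61 for let-7g and -0.50 for let-7i. In edgeR 0% of all tested miRNAs were called in either interaction, where 12 for diapause and 14 for mTORi had an unadjusted p under 0.05, none of them among the 4. DESeq2 called 0 for diapause and 1 for mTORi, again none of the 4. A call of let-7d in mural but not in polar diapaused fragments is therefore not shown to be a difference between the parts.

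Summed, the 4 members took a larger share of all miRNA counts in paused than in WT fragments. In polar fragments the share was 1.78%, 1.74% and 2.08% in diapaused libraries, 1.41%, 1.28% and 3.54% in mTORi libraries, and 1.09% and 0.931% in WT libraries. The polar means were 1.86% ± 0.187 for diapaused (SD, n = 3), 2.08% ± 1.27 for mTORi (n = 3) and 1.01% ± 0.112 for WT (n = 2). Without polar mTORi replicate 3, the library rich in epithelial markers, the polar mTORi mean was 1.34% (n = 2). In mural fragments the share was 1.14%, 1.98% and 1.06% in diapaused libraries, 0.844%, 1.11% and 1.32% in mTORi libraries, and 0.637% and 0.550% in WT libraries. These mural means were 1.39% ± 0.509 for diapaused (n = 3), 1.09% ± 0.238 for mTORi (n = 3) and 0.594% ± 0.0617 for WT (n = 2). In each part every paused library was above both WT libraries. With the other 5p names of the let-7 and miR-98 family added, let-7e among them, this held for diapaused but not for mTORi libraries. Polar mTORi replicate 2 (1.374%) then lay below polar WT replicate 1 (1.433%). Mural mTORi replicate 1 (1.14%) lay below mural WT replicate 1 (1.197%). Polar WT replicate 1 had the widest exact 95% interval of the WT libraries, 0.657% to 1.70%, which covers counting error only and overlaps those of polar diapaused replicates 1 and 2. The intervals of polar mTORi replicates 1 (1.018% to 1.888%) and 2 (0.854% to 1.848%) overlap those of both polar WT libraries. That of mural mTORi replicate 1 (0.595% to 1.161%) overlaps those of both mural WT libraries. Mural mTORi replicate 2 (0.792% to 1.505%) overlaps mural WT replicate 1 (0.458% to 0.863%).

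For the 4 members, paused libraries also stood above WT libraries within each part when set against the miR-290/miR-295 cluster, a ratio that no scaling factor touches. Per 100 counts of the cluster, polar fragments held 3.99, 3.84 and 5.47 let-7 counts in diapaused libraries, 3.42, 2.93 and 12.7 in mTORi libraries and 2.15 and 1.68 in WT libraries. Mural fragments held 2.24, 3.99 and 2.17 in diapaused libraries, 1.98, 2.75 and 3.23 in mTORi libraries and 1.25 and 1.10 in WT libraries. The ratio of group means for diapaused over WT was 2.31 in polar and 2.39 in mural fragments. Without polar mTORi replicate 3 the polar mTORi mean was 3.17 in place of 6.35. The denominator moved too. In polar fragments the cluster held 37.97% to 45.2% of the counts in diapaused against 50.6% to 55.3% in WT libraries, without overlap. Mural fragments overlapped, with 48.8% to 50.95% in diapaused against 50.2% to 51.0% in WT libraries. Of its 13 tested names, 0 were called in polar diapaused fragments against WT (median log2 change -0.34) and 1 was called higher in mural ones (median 0.21). Averaged over parts, 3 were called lower in mTORi fragments, with a median of -0.49. With the cluster left out of the totals, the share of the 4 members was 1.51-fold higher in polar diapaused than in polar WT libraries, against 1.85-fold with it.

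**Figure D4:**
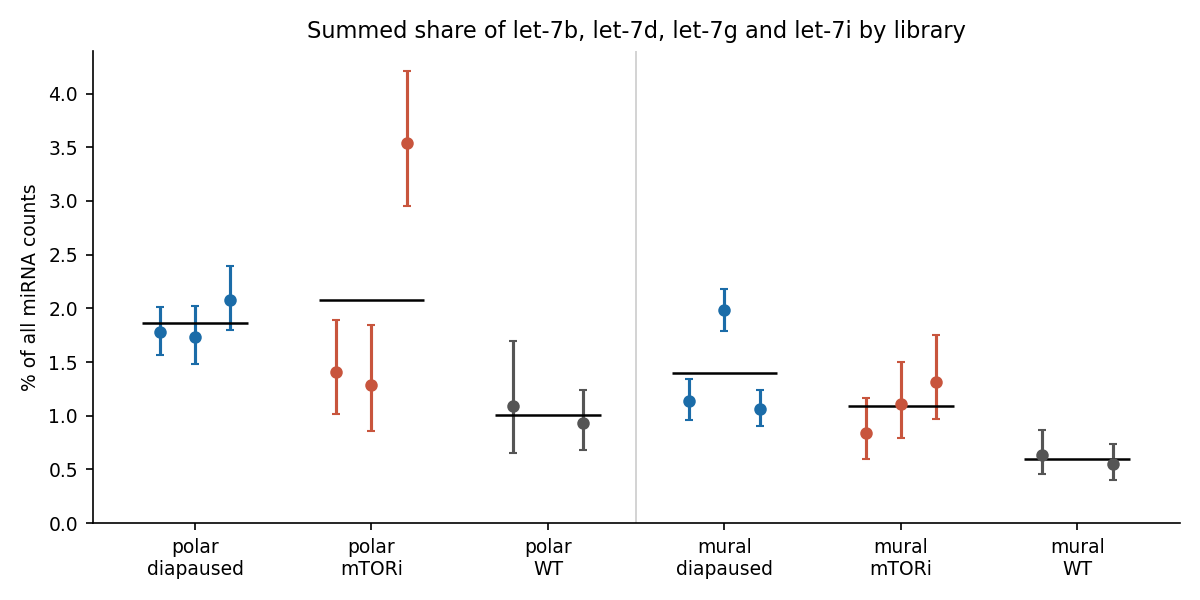
Share of all miRNA counts held by let-7b, let-7d, let-7g and let-7i together. The y axis is percent of a library's counts, each point is a library with its exact 95% binomial interval (counting error only), and lines are group means. Shares were 1.06% to 2.08% in diapaused, 0.844% to 3.54% in mTORi and 0.550% to 1.09% in WT libraries.

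The make-up of that sum differed by treatment in let-7d and let-7b. let-7d made up 22.5% ± 1.93 of the 4-member count in polar diapaused (SD, n = 3), 4.35% ± 0.68 in polar mTORi (n = 3) and 6.52% ± 9.22 in polar WT libraries (n = 2). In mural fragments it made up 22.3% ± 2.77 in diapaused (n = 3), 16.7% ± 6.89 in mTORi (n = 3) and 8.14% ± 2.29 in WT libraries (n = 2). Every diapaused library, at 19.1% to 24.5%, was above every WT library, at 0% to 13.04%, while mural mTORi replicate 1, at 24.3%, was within the diapaused range. These WT shares rest on few counts. Their exact 95% intervals were 0% to 17.6% and 4.94% to 26.3% in polar WT replicates 1 and 2. For mural WT replicates 1 and 2 they were 2.72% to 23.1% and 1.37% to 17.9%. Each overlaps the interval of polar diapaused replicate 2, 14.7% to 27.6%, so counting error leaves the separation unsettled. let-7g made up 27.5% to 47.3% in diapaused libraries and exceeded let-7b in 5 of the 6. let-7b had the widest span in points, with means in polar fragments of 25.4% ± 5.26 in diapaused (n = 3), 56.7% ± 19.1 in mTORi (n = 3) and 52.4% ± 0.32 in WT libraries (n = 2), but mural groups that overlapped. Over both parts it made up 19.4% to 43.1% in diapaused, 29.7% to 78.2% in mTORi and 31.7% to 60.9% in WT libraries. Its highest share was 97 of 124 let-7 counts (78.2%, exact 95% interval 69.9% to 85.1%) in polar mTORi replicate 3.

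**Figure D5:**
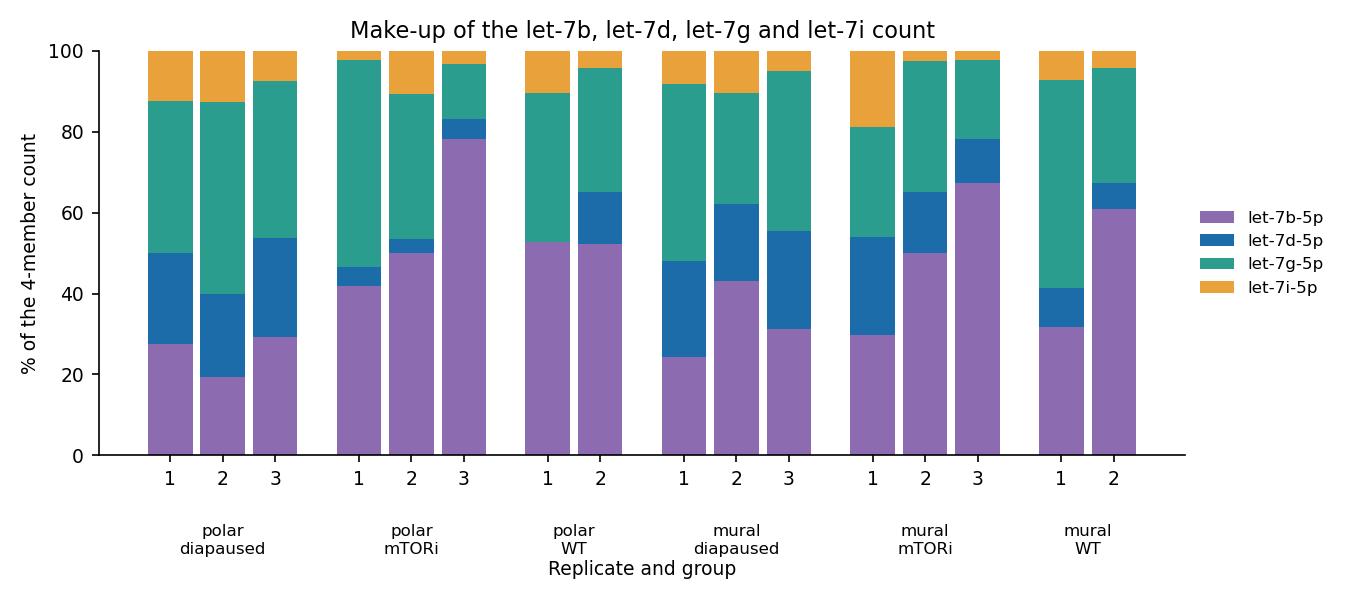
Make-up of the summed let-7b, let-7d, let-7g and let-7i count in each library, as percent of the 4-member count, with replicate numbers under the bars. let-7d takes 19.1% to 24.5% in all 6 diapaused libraries, 3.57% to 24.3% in mTORi libraries and 0% to 13.04% in WT libraries.

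In order of group mean, let-7d, let-7g and let-7i were each highest in polar diapaused, next in mural diapaused and lowest in mural WT fragments, whereas let-7b was highest in polar mTORi and lowest in mural WT, with only mural WT below polar diapaused. The means of let-7d were 3884 ± 452 CPM in polar diapaused, 3752 ± 792 in mural diapaused, 1813 ± 290 in mural mTORi, 1092 ± 917 in polar mTORi, 618 ± 874 in polar WT and 491 ± 187 in mural WT fragments (SD). Between neighbours in that order, libraries did not overlap only from mural diapaused to mural mTORi. The means of let-7g were 7085 ± 736 CPM in polar diapaused, 6067 ± 775 in mural diapaused, 6051 ± 1820 in polar mTORi, 3258 ± 531 in polar WT, 2972 ± 591 in mural mTORi and 2413 ± 1214 in mural WT fragments. Here only the step from polar mTORi to polar WT was free of overlap. For let-7b and let-7i every pair of neighbours overlapped. Mean let-7i ran from 1860 ± 465 CPM in polar diapaused to 353 ± 161 CPM in mural WT, and mean let-7b from 15638 ± 16385 CPM in polar mTORi to 2687 ± 936 CPM in mural WT fragments.

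The rest of the family was counted unevenly. Of the 11 mature names of the let-7 and miR-98 family, 5 passed the filter, the 4 members and let-7e-5p. let-7e-5p gave 340 counts in 16 libraries and was not called in diapaused fragments against WT, with an averaged log2 change of -0.38 (SE 0.34, adjusted p = 0.540). In mTORi fragments it was lower than in WT, with an averaged log2 change of -1.48 (SE 0.39, adjusted p = 0.0113). let-7f-5p, a cluster partner of let-7d, gave 19 counts, 7 in mural diapaused, 11 in mural mTORi and 1 in polar WT libraries. let-7c-5p, the partner of let-7b, and let-7a-5p, the other partner of let-7d, were listed at 0 in all 16 libraries, as were let-7j and let-7k. miR-98-5p, a family member encoded on the X chromosome, gave 50 counts, 15 of them in polar and 25 in mural diapaused libraries, and did not pass the filter. How the authors' counting shared reads among near-identical names is not given in the sources used here. Reads of let-7a and let-7c could thus be missing or placed under a near-identical name. Like let-7f, at 19 counts, both have a mature sequence found in 2 annotated hairpins, against 1 for each member. The part of this in their counts was not tested. let-7c differs by 1 base from let-7b. let-7a differs by 2 bases from each of let-7b, let-7d and let-7g, and by 1 from let-7e. Levels of let-7b, let-7d, let-7g and let-7e are uncertain to that extent.

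The other arms of the member hairpins were almost silent. let-7d-3p gave 9 counts, 4 in polar diapaused, 4 in mural diapaused and 1 in polar mTORi libraries, and let-7b-3p gave 3. let-7g-3p and let-7i-3p were listed at 0 in every library.

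Across the 16 libraries the members varied together to different degrees. Pearson r of log2 CPM was 0.56 between let-7g and let-7i, 0.54 between let-7d and let-7g and 0.50 between let-7d and let-7i, but 0.29 between let-7b and let-7g, 0.13 between let-7b and let-7d and 0.13 between let-7b and let-7i. These values describe libraries that share group, depth and scaling, and carry no test. Among the other tested miRNAs, the 3 most like let-7d were miR-429-3p (r = 0.71 over libraries and 0.79 over the 6 group means), miR-200a-3p (0.70 and 0.70) and miR-141-3p (0.69 and 0.82), all of the miR-200 family of epithelial miRNAs. Polar WT replicate 1, the shallowest library, held 0 CPM of let-7d, miR-429-3p and miR-141-3p and the lowest miR-200a-3p value, 519 CPM. The r values of let-7d without it were not computed. Most like let-7b were miR-203-3p (0.76 and 0.86), miR-21a-5p (0.71 and 0.47) and miR-23a-3p (0.70 and 0.74). Polar mTORi replicate 3 held the highest value of each, at 34555 CPM for let-7b, 266465 for miR-203-3p, 45242 for miR-21a-5p and 11756 for miR-23a-3p. Their r without that library was not computed. Most like let-7g were miR-152-3p (0.64 and 0.74), miR-148a-3p (0.64 and 0.75) and miR-25-3p (0.60 and 0.76). For let-7i the 3 were miR-328-3p (0.59 and 0.60), miR-192-5p (0.50 and 0.63) and miR-423-5p (0.48 and 0.49), the weakest of the 4 sets of values.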

How the data were processed

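Small RNA libraries were made from 16 fragment samples with adapters that carry unique molecular identifiers, 12 to 20 PCR cycles and no size selection, and read to 75 bases, per the labels' protocols. The authors deposited raw counts per mature miRNA name, per the file headers, with the build GRCm38 per the submitters' processing notes. The sources used here do not give the aligner, the counting tool or any collapsing by molecular identifier, so intervals cover counting error only. Because the labels do not say whether replicates came from separate embryos, p-values measure only the spread between libraries, which may be technical.

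Counts were fitted in R 4.3.3 with edgeR 4.0.16: filterByExpr (minimum count 10, minimum total 15) kept 102 names, TMM factors scaled the libraries, and 1 quasi-likelihood model with 6 group means over all 16 libraries gave 14 two-sided contrasts. The common dispersion was 0.142 and the tested names held 92.8% to 97.6% of each library's counts. DESeq2 1.42.0, RLE factors, library size alone, no filter, only the groups compared, a replicate block and leaving out each library were the alternatives. The members, lists and tests were chosen with earlier results of these data known. Other miRNAs are named by the highest Pearson r of log2 CPM (prior count 2) with each member. Sequences are from RefSeq (GRCm38.p6) and gene context from GENCODE M21. The fit was tested on simulated data.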

Additional observations from a re-analysis of the deposited data

How the results depend on the processing

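The averaged diapause change of let-7d was called in every alternative that left let-7d counts in polar WT. Those of let-7g and let-7i were not called in every alternative. Among log2 changes recomputed by settings other than leaving out a library, 307 kept their direction and call, 10 gained and 9 lost the call, and 6 changed sign. The sign changes were those of let-7b between mural diapaused and mTORi (-0.11 by DESeq2, -0.18 by library size, -0.21 with only the groups compared, -0.10 by RLE factors), of let-7b between the parts of diapaused blastocysts (0.0023 by library size) and of the let-7g diapause interaction (0.18 by library size). None of these had been called. For diapaused against WT averaged over parts, 1 member was called with no filter on low counts, where let-7g (1.17, adjusted p = 0.119) and let-7i (1.73, adjusted p = 0.207) missed the threshold. let-7i also missed it by DESeq2 (1.64), library size (1.69) and RLE factors (1.63). For mTORi against WT averaged over parts, DESeq2 and no filter each called 1 member, let-7b. For polar diapaused against WT, DESeq2 and library size each called 1, let-7d. For polar diapaused against mTORi, DESeq2 called 2 (let-7d and let-7b), only the groups compared called 0, and for polar over mural averaged over treatments DESeq2 and library size each called 1, let-7g. The fit on only the groups compared was not run for the last, where all groups enter. Equally numbered polar and mural libraries deviated together with correlations of -0.01 to 0.36 in diapaused, 0.11 to 0.18 in mTORi and 0.31 in WT blastocysts, so every pair was over 0.1 in mTORi and WT but not in diapaused blastocysts. WT has only 2 pairs, and with 2 libraries per group their deviations mirror each other. Both WT pairs therefore give the same correlation by construction, and it is a single value. No label says that a number marks shared embryos, so whether the numbers pair the pieces is not settled. The replicate block gave each replicate number a single effect shared by all treatments, whose embryos differ. It is thus no pairing of polar and mural pieces. With this block 2 members were called in mural diapaused against WT (let-7g joining at an adjusted p of 0.0479) and 0 in polar diapaused against mTORi (let-7d at 1.80, adjusted p = 0.0564). The block changed no other call of a member, including polar over mural in mTORi blastocysts. The fold in summed share was 1.51 with the miR-290/miR-295 cluster left out of the total, against 1.85, for polar diapaused over WT, and 1.22 with all family names, against 1.84, for mural mTORi over WT. In fits without 1 library, which assume that a lone WT library varies like the others, the members called ran from 1 to 3 for averaged and 0 to 2 for mural diapaused against WT. They ran from 0 to 1 for polar diapaused against WT, averaged and mural mTORi against WT, polar diapaused against mTORi and averaged polar over mural. Changes that crossed 0 ranged, for let-7b, from -0.84 to 0.20 between parts in diapaused, -0.11 to 1.98 between parts in mTORi, -0.77 to 0.43 for mural diapaused over mTORi and -0.93 to 1.16 for the mTORi interaction. For let-7d they ranged from -0.15 to 0.40 (diapaused parts), -5.004 to 1.29 (WT parts), -1.83 to 0.27 (averaged parts), -0.62 to 6.11 (polar mTORi over WT), -1.10 to 5.25 (diapause interaction) and -2.53 to 4.27 (mTORi interaction), where the extremes come from the fit that leaves polar WT with 0 counts and are no bounds. For let-7g they ranged from -0.036 to 1.03 (WT parts), -0.81 to 0.29 (diapause interaction) and -0.14 to 0.92 (mural mTORi over WT). For let-7i they ranged from -0.11 to 0.99 (diapaused parts), -0.30 to 1.70 (mTORi parts), -0.18 to 1.23 (polar mTORi over WT), -0.22 to 1.68 (mural mTORi over WT), -1.11 to 0.31 (diapause interaction) and -1.33 to 0.98 (mTORi interaction). The cause of each was not tested. Depth limits let-7i and let-7d most, with 0 to 6 counts in each WT library.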
